A study of Homo sapiens with 6 samples.

Results

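The markers examined here are 10 genes used to recognise stem and progenitor cells of the colon and of colon cancer, namely PROM1, ALCAM, EPCAM, BMI1, LRIG1, MSI1, OLFM4, SMOC2, HOPX and DCLK1. They were taken as a fixed list of names, and every probe set whose single gene symbol in the platform annotation was a listed name was used. This gave 10 of the 32321 probe sets on the array for 9 of the genes, 2 of them for EPCAM, where 18404 genes had a probe set of their own. BMI1, a core subunit of Polycomb repressive complex 1, shares its probe set with a read-through transcript that joins it to a neighbouring gene, so no value is given for it. The arrays hybridised RNA from DLD-1, an established human colon cancer cell line whose APC gene is mutated. DLD-1/DKK1 cells carry a doxycycline-inducible lentivirus for V5-tagged DKK1, and DLD-1/Mock cells a lentivirus that the paper describes as encoding no ectopic gene. The supplement describes the vector with and without DKK1, in both cases with a green fluorescent reporter. Both groups, with 3 dishes each, were given doxycycline for a day, at 10 mg/ml according to the labels, while the methods give the same number in micrograms. Nothing in the sources used here says that the dishes of a group came from more than 1 transduction, so a p-value here sets a difference against dish-to-dish scatter, which may be technical.

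The crypts of the intestine are renewed by stem cells at their base, which depend on Wnt signalling and give rise to absorptive and secretory cells. Tumours of the colon are thought to hold cells with similar properties, and surface proteins such as PROM1 (CD133), ALCAM (CD166), EPCAM and CD44 have been used to sort them. Other markers come from lineage tracing in mice, where LRIG1 and HOPX were linked to slowly dividing crypt cells and DCLK1 to tuft cells and tumour stem cells. DKK1 blocks Wnt signalling at the LRP5 and LRP6 co-receptors, upstream of the step that APC loss bypasses. The questions here were which of these markers DLD-1 cells express, and whether induced DKK1 went with other levels of them than in DLD-1/Mock.

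The 6 arrays were of similar overall brightness, with medians of 6.76 to 6.86 on the log2 scale. The second DLD-1/Mock array (Mock 2) stood apart, with correlations of 0.9953 to 0.9969 to the other arrays, while all pairs among the other arrays reached at least 0.9973. DKK1 itself was at 12.30, 12.38 and 12.36 in DLD-1/DKK1 and at 5.15, 5.74 and 5.01 in DLD-1/Mock on the log2 scale, which matches the labels. The epithelial genes KRT8, KRT18, KRT19 and CDH1 were bright on every array, with means of 11.48 to 12.84 in DLD-1/DKK1 and 11.48 to 12.94 in DLD-1/Mock. The pan-leukocyte gene PTPRC was at 4.34 ± 0.06 in DLD-1/DKK1 and 4.34 ± 0.02 in DLD-1/Mock (SD, n = 3).

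The first question was which markers stood above the level of genes that colon cells are not known to use. No detection calls come with the values, so the mean of each probe set over the 6 arrays was set against 350 probe sets of olfactory receptors, whose 95th percentile was 6.05. By this yardstick 7 of the 10 probe sets, of 6 genes, were brighter than the olfactory receptor range, as were 60% of all probe sets. The yardstick is a description and not a test. Probes differ in how brightly they bind, so the values give no order of transcript levels between genes. The dishes were measured in bulk, so a few cells with much of a transcript and many cells with little of it cannot be told apart.

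EPCAM, ALCAM and PROM1 were far above the range, and all 3 encode proteins of the cell surface. EPCAM, an adhesion protein of nearly all intestinal epithelium, lay at percentiles 98.7 and 98.7 of all probe sets with its 2 probe sets. ALCAM, an immunoglobulin-type adhesion molecule that binds CD6 and itself, lay at percentile 93.6. PROM1, a pentaspan glycoprotein of membrane protrusions, lay at percentile 80.1. These 4 probe sets were also above the 99th percentile of the olfactory receptors, 6.80.

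MSI1, HOPX and LRIG1 were just outside the range and below that 99th percentile. MSI1, an RNA-binding protein that represses translation of NUMB, averaged 6.49 over the 6 arrays (percentile 45.9). HOPX, an atypical homeodomain protein that does not bind DNA itself, averaged 6.38 (percentile 44.6), and both were above the range on each of the 6 arrays. LRIG1, a transmembrane protein that promotes the breakdown of ERBB receptors, averaged 6.10 (percentile 40.8) and was above the range on 3 of the 6 arrays. Without Mock 2, its brightest array, LRIG1 averaged 6.027 and the 95th percentile of the olfactory receptors was 6.002.

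SMOC2, DCLK1 and OLFM4 were within the olfactory receptor range on all 6 arrays. SMOC2, a secreted calcium-binding matrix protein, averaged 5.61. DCLK1, a microtubule-associated kinase, averaged 5.10. OLFM4, a secreted glycoprotein of crypt base cells in human colon, averaged 4.66 (percentile 16.5), below the median olfactory receptor at 4.81. A change in a transcript at such brightness could have been missed.

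**Figure D1:**
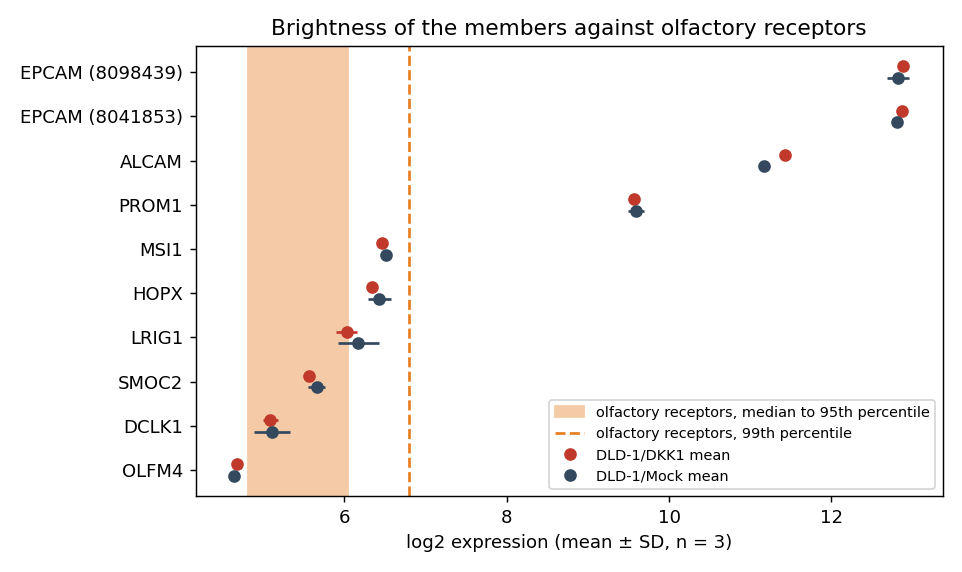
Mean log2 expression (horizontal axis) of each member probe set for the DLD-1/DKK1 and the DLD-1/Mock group, with whiskers for the SD over 3 arrays; the band runs from the median (4.81) to the 95th percentile (6.05) of 350 olfactory receptor probe sets and the dashed line marks their 99th percentile (6.80). EPCAM, ALCAM and PROM1 lie far to the right of the band, MSI1, HOPX and LRIG1 just beyond it or at its edge, and SMOC2, DCLK1 and OLFM4 within it or below.

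The stretches before the start sites of ALCAM, the marker whose groups lay farthest apart, and of OLFM4, the dimmest marker, are shown because they differ in CpG dinucleotides, which are set in capitals. Both are the 250 bases upstream of the start, 5′ to 3′, from RefSeq (GRCh38.p14), at chr3:105366659-105366908 and chr13:53028563-53028812, each on the plus strand.
ALCAM: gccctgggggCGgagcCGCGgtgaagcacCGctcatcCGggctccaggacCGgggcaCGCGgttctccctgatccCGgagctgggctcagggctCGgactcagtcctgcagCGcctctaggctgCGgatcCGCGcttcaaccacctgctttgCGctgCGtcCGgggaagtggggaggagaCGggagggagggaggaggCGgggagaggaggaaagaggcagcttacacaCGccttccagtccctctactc
OLFM4: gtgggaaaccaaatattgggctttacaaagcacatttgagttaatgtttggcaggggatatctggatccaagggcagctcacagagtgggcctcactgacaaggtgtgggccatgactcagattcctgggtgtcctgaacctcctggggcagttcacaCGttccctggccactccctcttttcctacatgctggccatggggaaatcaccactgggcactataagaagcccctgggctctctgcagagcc

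The ALCAM stretch held 20 CpG (percentile 68.7 of 35116 promoters) and the OLFM4 stretch 1 (percentile 10.4), against a median of 11. The SMOC2 stretch held 24. The TCF/LEF motif CTTTGAT was found on neither strand of the ALCAM or OLFM4 stretch. It was in 1 of several stretches each of PROM1 and DCLK1. Of all promoters 2.26% held it, which is a share of promoters and not of genes. Of the 10 genes, 8 were matched in the promoter table, several with more than 1 start.

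The second question was whether marker levels in DLD-1/DKK1 differed from those in DLD-1/Mock. In limma, 0 of these 10 reached an adjusted p under 0.05, against 0.0866% of all probe sets (12 higher and 16 lower, or 10 and 7 after median centring). At an unadjusted p under 0.05 there was 1, ALCAM, higher in DLD-1/DKK1, where 4.02% of all probe sets were higher and 5.21% lower at that level. Of the 10 probe sets, 4 had a log2 fold change above 0 and 6 below, with a median of -0.03, and the median of all probe sets was -0.01. The arrays of both groups were apart for 2 of the 10, against 16.5% of all probe sets.

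ALCAM was at 11.45, 11.41 and 11.45 in DLD-1/DKK1, against 11.18, 11.13 and 11.18 in DLD-1/Mock on the log2 scale. The lowest DLD-1/DKK1 array exceeded the highest DLD-1/Mock array, and each group was tight. The log2 fold change was 0.27 (SE 0.04) with a 95% interval of 0.17 to 0.36, which is 1.21-fold with an interval of 1.13-fold to 1.29-fold. The limma adjusted p was 0.123 (unadjusted 0.00034), and by exact permutation, two-sided, p was 0.1, the smallest that 3 arrays against 3 allow. ALCAM ranked 89th of all probe sets by its limma p, while 28 passed, and 3.33% of all probe sets had a fold change of at least its size in either direction. It passed in 3 of 14 alternative analyses, with an adjusted p of 0.0495 among probe sets above the median brightness, 0.044 among annotated probe sets and 0.0406 with a trended and robust prior in limma. In these analyses 0.408%, 0.477% and 0.164% of all probe sets tested passed. Without Mock 2 its log2 fold change was 0.25 (limma adjusted p = 0.251). CD6, the leukocyte receptor that binds ALCAM, was at 6.08 ± 0.08 in DLD-1/DKK1 and 6.21 ± 0.14 in DLD-1/Mock (SD, n = 3).

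EPCAM, the adhesion protein, differed little. Its probe set 8041853 was at 12.88, 12.87 and 12.87 in DLD-1/DKK1, against 12.85, 12.79 and 12.80 in DLD-1/Mock, so the log2 fold change was 0.06 (95% interval -0.03 to 0.15) (limma adjusted p = 0.648). The groups did not overlap here, although the gap was narrow. Its probe set 8098439 was at 12.91, 12.89 and 12.84 in DLD-1/DKK1, against 12.90, 12.67 and 12.90 in DLD-1/Mock, and the groups overlapped. That fold change was 0.06 as well, with an interval of -0.11 to 0.23, and it turned to -0.02 without Mock 2. The annotation gives both probe sets the same accessions, so they could not be assigned to different transcripts. Claudin-7 (CLDN7), a tight junction protein that EPCAM binds, was at 12.33 ± 0.03 in DLD-1/DKK1 and 12.33 ± 0.04 in DLD-1/Mock (SD, n = 3).

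PROM1 was at 9.57, 9.62 and 9.50 in DLD-1/DKK1, against 9.65, 9.48 and 9.66 in DLD-1/Mock. The groups overlapped, with Mock 2 the lowest array of all. The log2 fold change was -0.04 with a 95% interval of -0.19 to 0.11 (limma adjusted p = 0.866), so changes beyond 0.878-fold or 1.08-fold lay outside the interval. The sign turned after median centring of the arrays. Its paralog PROM2 had -0.08.

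**Figure D2:**
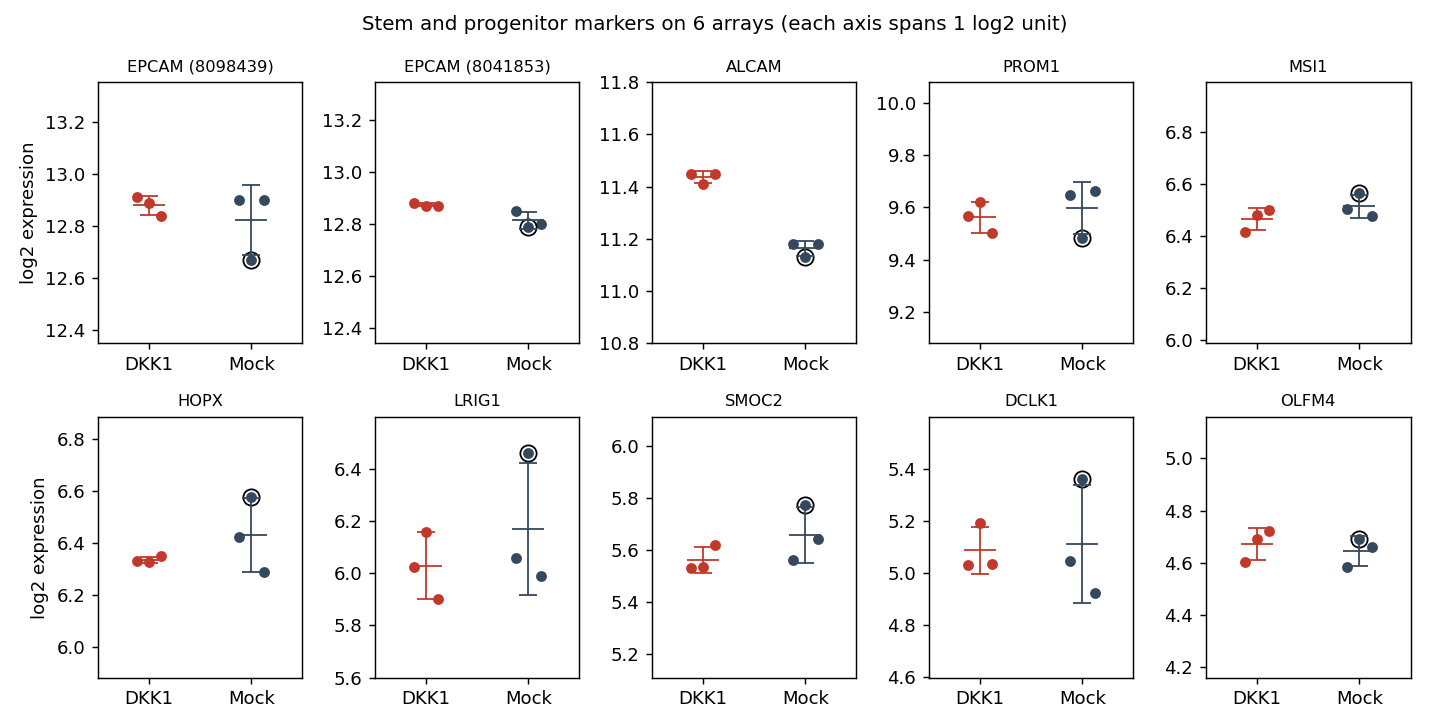
Log2 expression (vertical axis, 1 log2 unit in each panel) of each member probe set on the 3 DLD-1/DKK1 and 3 DLD-1/Mock arrays, with a point per array, a bar and whiskers for the mean ± SD, and a ring around Mock 2. The groups are apart in the ALCAM panel, by a narrow gap in the panel of EPCAM probe set 8041853, and overlap in the other 8.

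Among the markers near the olfactory receptor range, MSI1 was at 6.42, 6.48 and 6.50 in DLD-1/DKK1, against 6.50, 6.56 and 6.48 in DLD-1/Mock. Its log2 fold change was -0.05 with an interval of -0.16 to 0.06, and its sign turned after median centring. HOPX was at 6.33, 6.33 and 6.35 in DLD-1/DKK1, against 6.43, 6.58 and 6.29 in DLD-1/Mock. The 3 DLD-1/DKK1 arrays of HOPX lay within the spread of the DLD-1/Mock arrays, and the log2 fold change was -0.10 with an interval of -0.27 to 0.08. It was -0.02 without Mock 2, -0.17 without the third DLD-1/Mock array and -0.04 after median centring. LRIG1 was at 6.03, 6.16 and 5.90 in DLD-1/DKK1, against 6.06, 6.46 and 5.99 in DLD-1/Mock. It had the largest spread of the members, with a residual SD of 0.20, and its log2 fold change was -0.14 (interval -0.46 to 0.18). Without Mock 2, the highest LRIG1 array, this fold change was 0.00.

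Among the dim markers, SMOC2 was at 5.53, 5.54 and 5.62 in DLD-1/DKK1, against 5.56, 5.77 and 5.64 in DLD-1/Mock, with a log2 fold change of -0.10 (interval -0.25 to 0.06), or -0.04 both without Mock 2 and after median centring. DCLK1 was at 5.03, 5.19 and 5.04 in DLD-1/DKK1, against 5.05, 5.36 and 4.92 in DLD-1/Mock, with -0.02 (interval -0.30 to 0.25), which turned in sign after median centring. OLFM4 was at 4.60, 4.69 and 4.72 in DLD-1/DKK1, against 4.58, 4.69 and 4.66 in DLD-1/Mock, with 0.03 (interval -0.10 to 0.15), which turned in sign without the first DLD-1/Mock array. The groups overlapped for all 3 genes. Over the 8 genes other than ALCAM the limma adjusted p ran from 0.648 to 0.958, and the intervals of the log2 fold change lay between -0.46 and 0.25, or 0.727-fold and 1.19-fold.

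Mock 2 stood apart among the members too. Of the 3 DLD-1/Mock arrays, Mock 2 was the highest for all 6 member probe sets with a mean of at most 9 and the lowest for all 4 above it. Over all probe sets, it was the highest for 44.6% of those at or below 9 and the lowest for 52.0% of those above, a split chosen after the values were seen. Without Mock 2 the fold changes of LRIG1, DCLK1 and EPCAM probe set 8098439 had the opposite sign, and that of DCLK1 was then 0.10. Without it, the log2 fold change of HOPX was -0.02, of SMOC2 -0.04, of MSI1 -0.02, of PROM1 -0.09 and of OLFM4 0.05, while ALCAM had 0.25 and EPCAM probe set 8041853 had 0.05.

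**Figure D3:**
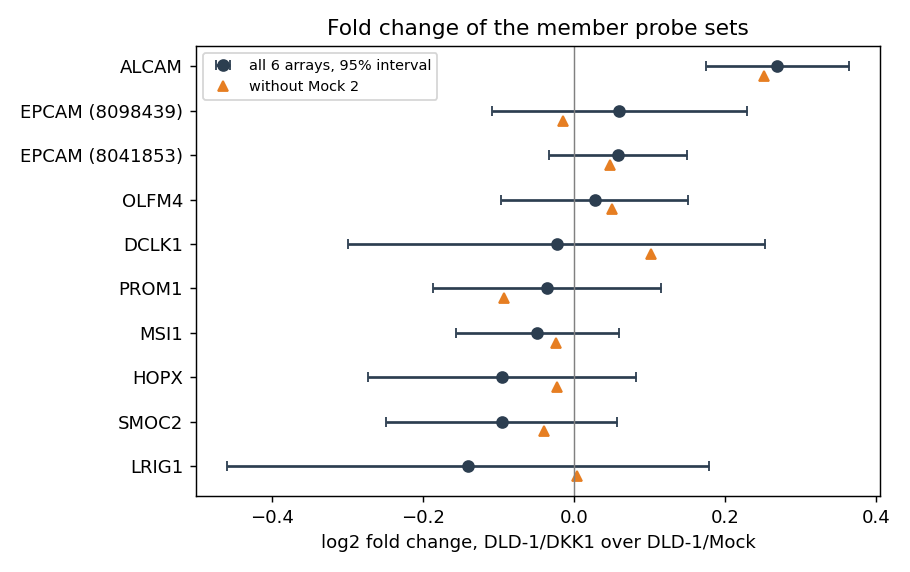
Log2 difference, DLD-1/DKK1 minus DLD-1/Mock, on the horizontal axis for each member probe set, with circles and whiskers for the limma estimate from 6 arrays and its 95% interval and triangles for the estimate without Mock 2. The interval of ALCAM, 0.17 to 0.36, lies above 0, and the other 9 include 0.

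Further markers of the same cells were then counted from lists of related genes. Of 14 genes of crypt base stem cells, 12 were measured and 11 were brighter than the olfactory receptor range. None passed in limma, while 1 higher and 1 lower gene had an unadjusted p below 0.05 (4.02% and 5.21% of all probe sets), and their median log2 fold change was 0.00. LGR5, a receptor for R-spondins and the defining marker of these cells, was bright (percentile 97.2). It was at 12.13, 12.14 and 12.17 in DLD-1/DKK1, against 12.30, 12.22 and 12.33 in DLD-1/Mock. The highest DLD-1/DKK1 array was under the lowest DLD-1/Mock array, with a log2 fold change of -0.14 (interval -0.24 to -0.03; limma adjusted p = 0.482). EPHB3, an ephrin receptor that positions cells along the crypt, had a log2 fold change of 0.12 (interval 0.02 to 0.22; limma adjusted p = 0.509). ASCL2, a transcription factor of crypt base cells, had -0.02 (interval -0.16 to 0.13), and its sign turned after median centring.

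Of 10 other markers of colon cancer stem cells, all measured, 8 were brighter than the olfactory receptor range. In limma 1 passed, ALDH1A1, and 3 had an unadjusted p below 0.05, all higher, where 4.02% of all probe sets were. The median log2 fold change was 0.09. ALDH1A1, an aldehyde dehydrogenase whose activity is used to sort such cells, was at 6.75, 6.79 and 6.79 in DLD-1/DKK1, against 6.15, 6.04 and 6.07 in DLD-1/Mock. It was just outside the olfactory receptor range, with a mean of 6.43 over the 6 arrays, below their 99th percentile of 6.80. Its DLD-1/Mock mean was 6.08, against the 95th percentile of 6.05, and it was above the range on 5 arrays. Its log2 fold change was 0.70 (SE 0.05; limma adjusted p = 0.0119), and it did not pass when any single array was left out, with adjusted p of 0.0567 to 0.12 in limma, nor with the replicate number as a block (0.223). Of all 32321 probe sets, only 2 to 6 passed with an array left out and 1 with the block, against 28 without either. The log2 fold change of ALDH1A1 was 0.67 to 0.73 with an array left out and 0.70 with the block. The study chose ALDH1A1 on these arrays, so its direction on them is no independent evidence. The paper also measured its RNA by qRT-PCR in these cells. It further reports higher ALDH1A1 RNA and protein in tumours with DKK1 in the nucleus than in tumours without it.

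CD44, the hyaluronan receptor, was at 11.94, 11.92 and 11.91 in DLD-1/DKK1, against 11.79, 11.73 and 11.85 in DLD-1/Mock, with a log2 fold change of 0.13 (interval 0.03 to 0.24; limma adjusted p = 0.489). KIT, the receptor for stem cell factor, had 0.19 (interval 0.05 to 0.34; limma adjusted p = 0.472). Without Mock 2 the log2 fold change was 0.11 for CD44 and 0.15 for KIT. CD24, a small sialoglycoprotein of the cell surface with near-identical copies in the genome, had 0.15 (interval -0.02 to 0.32), and 0.08 without Mock 2. The groups did not overlap for 4 of the 10 markers in this list, CD44, KIT, CD24 and ALDH1A1, against 16.5% of all probe sets.

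The members' relatives and partners gave no gene past the threshold. Of 14 measured paralogs 0 passed, and 3 had an unadjusted p below 0.05, 2 higher and 1 lower, against 4.02% and 5.21% of all probe sets. DCLK2, a paralog of DCLK1, was at 7.68, 7.82 and 7.78 in DLD-1/DKK1, against 7.43, 7.33 and 7.49 in DLD-1/Mock, and unlike DCLK1 it was brighter than the olfactory receptor range. Its log2 fold change was 0.34 (interval 0.20 to 0.49; limma adjusted p = 0.187), while DCLK1 had -0.02, and the difference between the paralogs was not tested. LRIG3 had 0.15 and the adhesion protein BCAM -0.22 (limma adjusted p = 0.484 and 0.398). MSI2, the second Musashi protein, was bright (percentile 87.5), with 10.39 ± 0.01 in DLD-1/DKK1 and 10.39 ± 0.02 in DLD-1/Mock (SD, n = 3).

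Of 11 measured genes of Polycomb complexes 1 and 2, in the first of which BMI1 acts, all were brighter than the olfactory receptor range. None passed in limma, 0 had an unadjusted p under 0.05, and the log2 fold changes ran from -0.05 to 0.08. The BMI1 paralog PCGF2 had -0.04. Of 10 partners and targets of the members 0 passed, and 1 was higher at an unadjusted p under 0.05 (all probe sets, 4.02%). That was ERBB3, a receptor of the family that LRIG1 restrains, at 9.82, 9.83 and 9.80 in DLD-1/DKK1, against 9.67, 9.70 and 9.68 in DLD-1/Mock, with a log2 fold change of 0.13 (limma adjusted p = 0.434). EGFR had -0.03, ERBB2 0.01 and the Musashi target NUMB -0.07.

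Of 4 measured pluripotency factors 0 passed in limma and 0 had an unadjusted p under 0.05. Of 9 measured genes of intestinal differentiation 0 passed, and 2 were lower at an unadjusted p under 0.05 (all probe sets, 5.21%). These were ALPI, an intestinal alkaline phosphatase, with a log2 fold change of -0.24 (limma adjusted p = 0.436), and TFF3, a goblet cell peptide, with -0.17 (limma adjusted p = 0.495). The log2 fold changes of the 9 went both ways, from -0.24 to 0.11, with a median of -0.04. In all, 70 genes of these 7 lists were measured beside the members, of which 1 passed, 11 had an unadjusted p below 0.05 (7 higher, 4 lower) and 21 had groups that did not overlap. Over all probe sets these shares were 0.0866% past the threshold, 4.02% higher, 5.21% lower and 16.5% not overlapping.

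**Figure D4:**
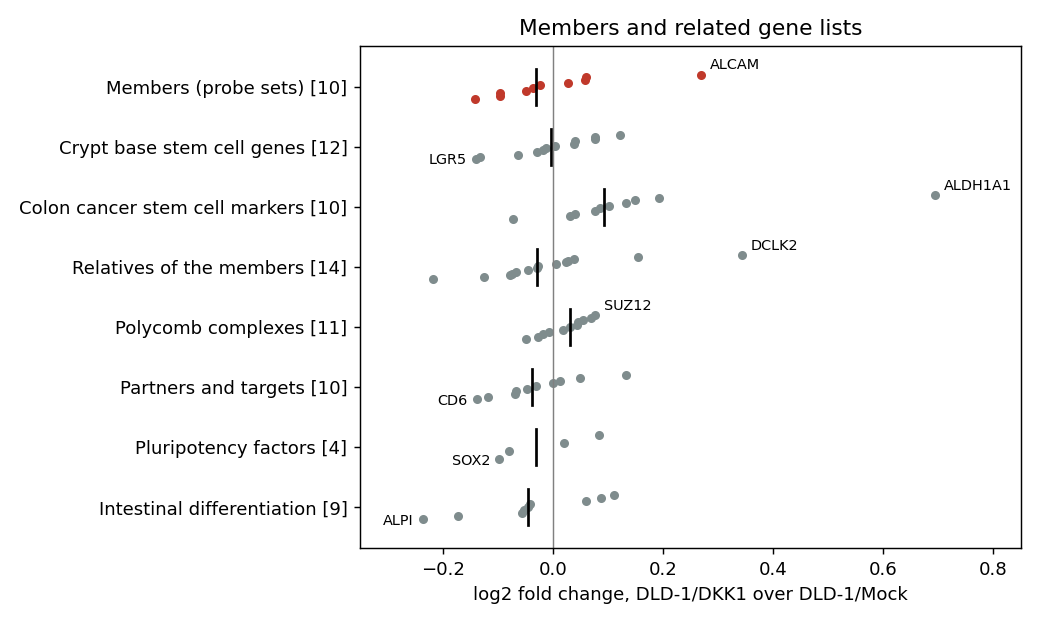
Log2 difference, DLD-1/DKK1 minus DLD-1/Mock, on the horizontal axis for the 10 member probe sets and for the measured genes of 7 related lists, with a point per probe set or gene, a bar for the median and the number of points in brackets; the gene farthest from 0 is named in each row. ALDH1A1 lies at 0.70, DCLK2 at 0.34 and ALCAM at 0.27, and the medians run from -0.04 to 0.09.

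Markers of other cells were checked alongside. Of 4 measured leukocyte markers 0 passed, and 2 were lower at an unadjusted p under 0.05 (all probe sets, 5.21%), CD68 with a log2 fold change of -0.26 (limma adjusted p = 0.345) and CD14 with -0.27 (limma adjusted p = 0.462). PTPRC had a log2 fold change of 0.00 and CD3E of -0.05. The summed log2 values of the 4 were 22.9 to 23.0 in DLD-1/DKK1 and 23.4 to 23.8 in DLD-1/Mock. Such sums were also apart for the other colon cancer stem cell markers (90.4 to 90.8 against 88.7 to 89.4). They were apart for intestinal differentiation too (65.0 to 65.3 against 65.4 to 65.8) and overlapped for the remaining lists. PTPRC and CD3E were within the olfactory receptor range, while CD68 (mean 7.35) and CD14 (mean 6.23) were brighter. Of 5 fibroblast and 5 endothelial markers 0 passed and 0 had an unadjusted p under 0.05. Brighter than the olfactory receptor range were 3 of the fibroblast and 1 of the endothelial markers, so markers of other cells also passed this yardstick. COL1A1 averaged 7.45, above the 99th percentile of 6.80 too, COL1A2 and COL3A1 6.45 and CDH5 6.17. MSI1 averaged 6.49, HOPX 6.38 and LRIG1 6.10, so passing the yardstick at this brightness does not by itself show expression.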

How the data were processed

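Total RNA of 3 dishes of DLD-1/DKK1 and 3 of DLD-1/Mock cells was biotin-labelled and hybridised to Affymetrix Human Gene 1.0 ST arrays. The authors preprocessed the scans in R by robust multichip averaging (affy) and deposited log2 values, which were used as they stood. Versions of those tools are not given in the sources used here. Distributions equalised in this way hide a shift common to most transcripts. Symbols came from the platform annotation, which gave 1 symbol to 19158 probe sets, several to 1388 and none to 11775, and no gene was named from the last 2 kinds.

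Every probe set was fitted with limma 3.58.1 in R 4.3.3 (lmFit, eBayes), two-sided, without covariates, and p-values were adjusted by Benjamini-Hochberg over all 32321 probe sets, with 4 residual and 2.56 prior degrees of freedom. Single values were also tested by exact permutation. The number of arrays limits the precision. Related lists kept the brightest probe set per gene. From them the text names ALDH1A1, LGR5, ASCL2, CD44 and CD24, every passing gene, and up to 3 with the smallest unadjusted p if under 0.05; further genes were named after their values were seen, as partners or paralogs of a member. The members and lists were chosen with earlier results of these data known. Alternatives were median centring, quantile normalisation, cyclic loess, array weights, a trended and robust prior, leaving out dim probe sets or those without annotation, the replicate number as a block and each array left out in turn. The fit was also run on simulated arrays with known changes and independent noise, as a check of the code and not of these results. Promoter sequences came from RefSeq (GRCh38.p14). Figures were drawn with matplotlib 3.10.9.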

Additional observations from a re-analysis of the deposited data

How the results depend on the processing

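The number of members past the threshold was 1 (ALCAM) among probe sets above the median brightness, among annotated probe sets and with a trended and robust prior, and 0 in the other 11 analyses. Over these 14, the log2 fold change of ALCAM ran from 0.25 to 0.32 and its adjusted p from 0.0406 to 0.458. Over all probe sets, 17 passed after median centring (10 higher, 7 lower), 66 above the median brightness, 98 among annotated ones, 53 with the trended and robust prior, 59 with array weights, and 2 to 6 with 1 array left out. Of the 70 related genes, 0 passed above the median brightness, which removed ALDH1A1, and 0 with 1 array left out. The filters tested fewer probe sets; elsewhere the cause was not tested. Against the 99th percentile of olfactory receptors 4 member probe sets were brighter, and 7 against the 90th and, in a check added after seeing the data, 7 with any 1 array left out.

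Median centring turned PROM1 to 0.0163, MSI1 to 0.00367, DCLK1 to 0.0293 and ASCL2 to 0.0354. It also moved the median of all probe sets by 0.05, from -0.006 to 0.046, while quantile normalisation gave a median of -0.001. MSI1 was also at 0.00431 after quantile normalisation and 0.00512 after cyclic loess, and DCLK1 at 0.000453 after cyclic loess and 0.0444 with array weights. With 1 array left out, EPCAM probe set 8098439 ran from -0.015 to 0.0981, LRIG1 from -0.23 to 0.00446, OLFM4 from -0.00403 to 0.0614, DCLK1 from -0.12 to 0.10 and ASCL2 from -0.054 to 0.0403.

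The labels give both groups the numbers 1 to 3 without saying that they pair dishes. Deviations from the group means correlated at 0.10, 0.01 and -0.14 for arrays of the same number. For arrays of different numbers the correlations ran from -0.23 to 0.23. With 3 arrays per group the deviations depend on each other, so these values cannot show or exclude pairing. Pairing was not assumed. With the replicate number as a block, 1 probe set passed (DKK1), and 0 members and 0 of the 70 related genes.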
